A study of Mus musculus with 40 samples.

Results

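The interferon-response genes described here are 42 genes taken by symbol from a table of 55414 genes: 8 guanylate-binding proteins, 2 interferon receptor chains, 3 RNA sensors, 5 transcription factors of the pathway, 17 antiviral effectors and 7 genes of MHC class I antigen presentation. All 42 symbols were found once. The list was drawn up because Gbp8 was already known to be higher in cells labelled ATF1/CREB1/CREM-KO, and the question was whether other interferon-response genes moved with it. The Gbp8 result in those cells is therefore given as a description and not as independent evidence.

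Interferons are secreted cytokines that cells release after sensing viral or bacterial products. Type I interferons act through the receptor chains Ifnar1 and Ifnar2, and interferon gamma acts through Ifngr1 and Ifngr2. Both receptors signal through Janus kinases to STAT transcription factors, which with IRF factors bind the interferon-stimulated response element (ISRE) or the gamma-activated site (GAS) and switch on antiviral effectors, guanylate-binding GTPases and the class I antigen presentation machinery. In epithelial cells a low level of many of these genes is present without any added interferon. ATF1, CREB1 and CREM are bZIP transcription factors activated by cyclic AMP signalling, and they bind the cyclic AMP response element (CRE).

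RNA was sequenced from mpkCCD cells polarized on permeable supports. mpkCCD is an immortalized line of mouse cortical collecting duct epithelium, the kidney segment where vasopressin controls water uptake. Every library came from cells kept for 72 hours with 0.1 nM dDAVP, a synthetic agonist of the vasopressin V2 receptor, and no label names an interferon or another immune stimulus. The table holds 11 libraries of unmodified control clones (genotype WT). It also holds 5 libraries with the label ATF1-KO and 3 with ATF1/CREB1-KO, and another 3 carry the label ATF1/CREB1/CREM-KO. Groups are called by these labels. The library numbers put control clones 1 to 5 beside ATF1-KO, control clones 6 to 8 beside ATF1/CREB1-KO and control clones 9 to 11 beside ATF1/CREB1/CREM-KO. Each such block is called a run here, a word the labels do not use, and each knockout was compared with the control clones of its own run. Whether knockout replicates are separate clones or cultures of 1 clone is not given in the sources used here, so p-values measure only the spread between these libraries. Another 18 samples of a rescue experiment were not analysed here.

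The values are TPM, transcript abundances scaled to the same total in each library, which carry no read depth, so no counting interval is given. Between 17296 and 20703 genes were above 0 in a library. Ribosomal protein genes made up 7.19% of TPM in ATF1/CREB1-KO replicate 3, 12.6% to 15.3% in the other 5 libraries of run 2 and 2.68% to 4.14% in those of runs 1 and 3, and the control mean of run 2 was below those of runs 1 and 3 for 32 of the 42 genes and above both for 7. The edits are not described in the labels and a small coding edit need not lower a transcript, so the targeted genes do not check the labels. Atf1 lay between 17.5 and 37.8 TPM in ATF1-KO against 37.8 to 49.0 TPM in its control clones, between 15.1 and 23.7 TPM in ATF1/CREB1-KO against 23.3 to 26.2 TPM, and between 23.7 and 40.8 TPM in ATF1/CREB1/CREM-KO against 39.8 to 40.5 TPM, the last 2 with overlap. Creb1 was lower without overlap in ATF1/CREB1-KO (2.72 to 3.86 TPM against 4.98 to 6.69 TPM) and in ATF1/CREB1/CREM-KO (18.2 to 19.4 TPM against 35.9 to 39.0 TPM). Crem in ATF1/CREB1/CREM-KO was between 26.0 and 33.8 TPM against 20.0 to 24.9 TPM, higher than in every own-run control clone. It was also higher without overlap in ATF1/CREB1-KO (15.5 to 46.5 TPM against 9.08 to 13.0 TPM). Creb1 was higher without overlap in ATF1-KO (36.7 to 40.2 TPM against 28.0 to 34.3 TPM). Of 12 principal cell genes, all but Aqp4 were above 0 in every library, though Scnn1b reached at most 2.67 TPM. Aqp2 was at 15.1 to 16.1 TPM in ATF1/CREB1/CREM-KO against 641 to 2279 TPM in its control clones. Among markers of other cell types, the summed level of 5 fibroblast genes reached 1.95 TPM, that of 5 endothelial genes 0.52 TPM and that of 5 intercalated cell genes 0.22 TPM. Of 12 leukocyte genes, Adgre1, Nkg7, Klrb1c, Ncr1 and Lyz2 were listed at 0 in all 22 libraries. The leukocyte sum in run 1 was 24.05 to 42.35 TPM in control clones and 14.95 to 31.33 TPM in ATF1-KO. In run 2 it was 15.26 to 15.61 TPM in control clones and 5.60 to 23.88 TPM in ATF1/CREB1-KO. Ptprc was at 3.54 TPM in ATF1/CREB1-KO replicate 2 and at most 0.42 TPM in control clones 6 to 8. The leukocyte sum in run 3 was 18.6 to 19.8 TPM in control clones and 6.11 to 51.4 TPM in ATF1/CREB1/CREM-KO, where Csf1r alone was at 3.83, 45.5 and 48.0 TPM in replicates 1 to 3, and Cd68 fell there by 1.04 on the log2 scale (limma adjusted p = 0.0371). The part of these cells or markers in the results below was not tested.

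A gene was tested where its mean over the libraries compared was at least 1 TPM, with limma on log2(TPM + 1), and was called at a Benjamini-Hochberg adjusted p under 0.05 over all genes tested. Log2 changes are on that scale, which understates the change of genes at a few TPM. In ATF1/CREB1/CREM-KO, 34 of the 42 genes passed the filter and 6 were called: Gbp4, Gbp8, Gbp9, Ifit1 and Tapbp rose, and Ifngr1 fell. The libraries are bulk RNA, so a shift in all cells and a shift in some cells cannot be told apart. Over all genes, 9.17% of 13258 were called in that comparison, 3.91% higher and 5.26% lower. In ATF1-KO 34 genes passed and in ATF1/CREB1-KO 31 passed, and none of them was called. Over all genes, 0% of 13318 were called in ATF1-KO and 0.0715% of 12579 in ATF1/CREB1-KO, 0.0318% higher and 0.0397% lower. Without adjustment, 3 genes of the list in ATF1-KO, 2 in ATF1/CREB1-KO and 14 in ATF1/CREB1/CREM-KO had a limma p under 0.05. Over all genes tested, 7.61%, 9.53% and 27.0% had such a p in these comparisons, so the counts in ATF1-KO and ATF1/CREB1-KO were near the level of all genes. The median log2 change of the tested genes of the list was -0.09 in ATF1-KO (all genes 0.00), -0.01 in ATF1/CREB1-KO (all genes -0.03) and 0.13 in ATF1/CREB1/CREM-KO (all genes -0.04). In ATF1/CREB1/CREM-KO the tested genes include Gbp8, for which the list was drawn up. They also include Oas2 and Rsad2, which passed the filter only through the knockout libraries. The counts and the median in that knockout are therefore descriptions. In ATF1/CREB1-KO, Usp18, Oas1a and Ifih1 passed the filter only through the knockout libraries, and in ATF1-KO Rsad2 passed only through the control clones. The medians in those knockouts are descriptions as well.

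In ATF1/CREB1/CREM-KO, 15 genes of the list had no overlap between the 3 knockout and the 3 control libraries, 10 of them higher and 5 lower. Such separation was common in that run: 34.6% of all genes tested showed it, 14.5% higher and 20.2% lower. The 10 higher genes include Gbp8, for which the list was drawn up, and Oas2 and Rsad2, which passed the filter only through the knockout libraries. Their count is therefore a description. In ATF1/CREB1-KO 5 genes of the list did not overlap, 3 higher and 2 lower, where 19.0% of all genes did not (6.67% higher, 12.4% lower). In ATF1-KO all genes of the list overlapped, where 1.30% of all genes did not.

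**Figure D1:**
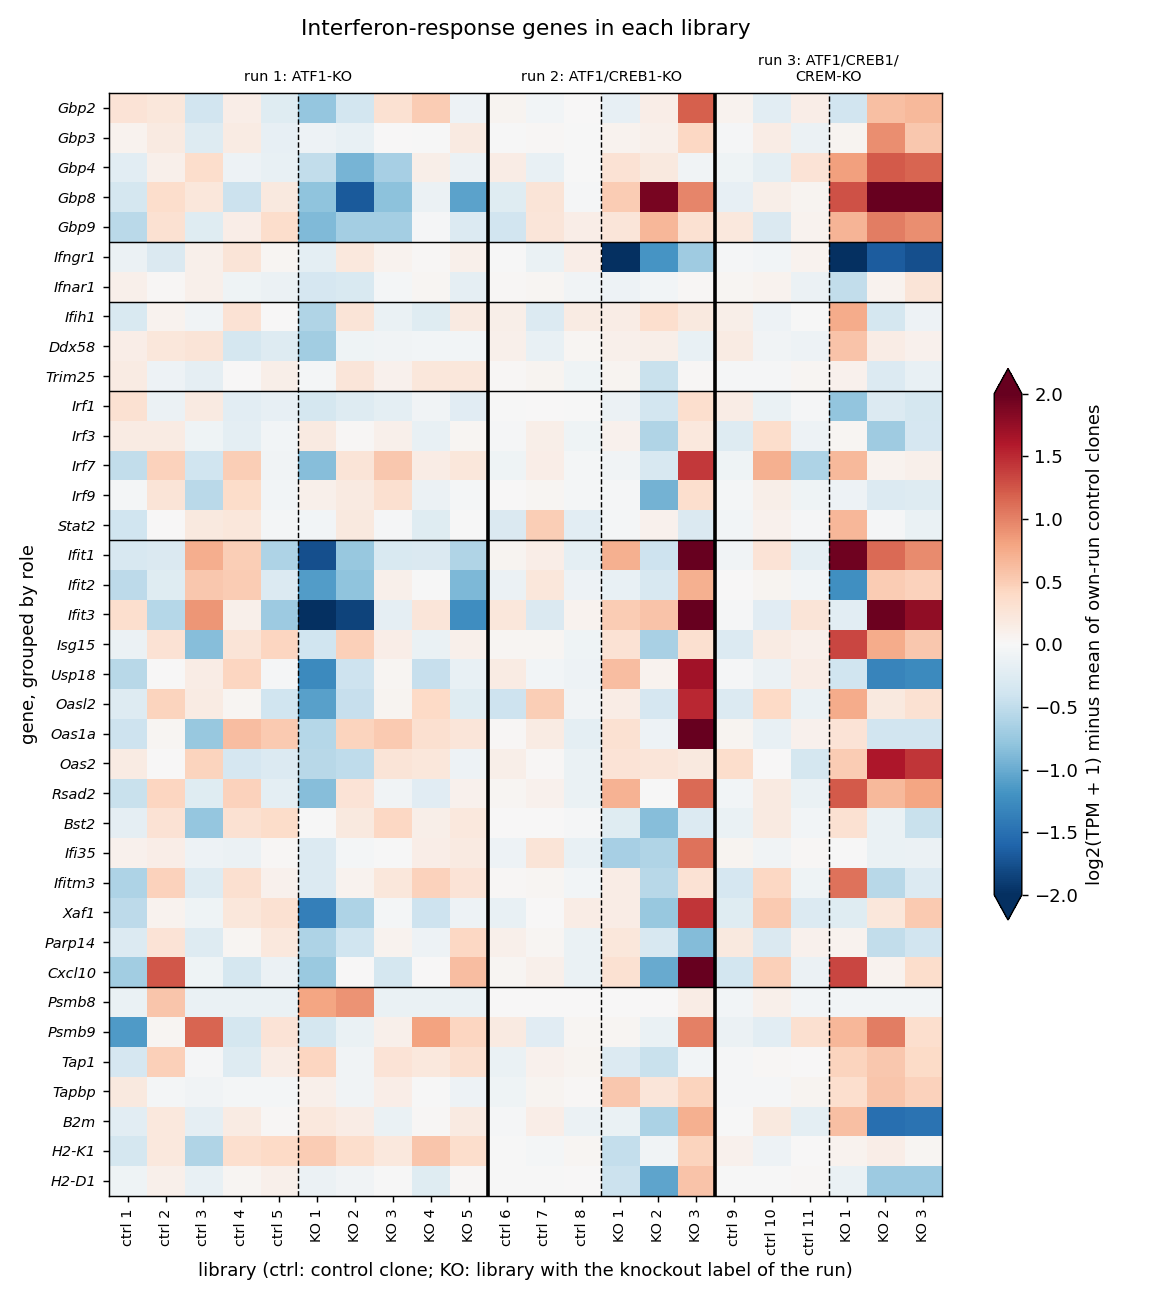
Each row is an interferon-response gene that reached 1 TPM in at least 1 library (37 of 42), grouped by role; each column is a library. Colour gives log2(TPM + 1) minus the mean over control clones of the same run, limited at 2 in either direction. The 3 ATF1/CREB1/CREM-KO columns share high Gbp4, Gbp8 and Gbp9 and low Ifngr1, while B2m, Ifit2 and Ifit3 differ between replicate 1 and replicates 2 and 3.

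The guanylate-binding proteins are GTPases, induced mainly by interferon gamma, that assemble on the membranes of intracellular pathogens. Gbp8 was at 5.86, 7.31 and 6.97 TPM in control clones 9 to 11 and at 17.6, 34.3 and 43.0 TPM in ATF1/CREB1/CREM-KO replicates 1 to 3. All 3 knockout libraries were above all 3 control clones, and replicate 1 was the lowest of the 3. The mean was 31.7 TPM ± 12.9 (SD, n = 3) against 6.71 TPM ± 0.758 (SD, n = 3), which is 4.71-fold, with a log2 change of 2.00 (SE 0.31, limma adjusted p = 0.0147).

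Gbp9 was at 12.9, 8.83 and 11.6 TPM in control clones 9 to 11 and at 18.1, 23.4 and 21.8 TPM in ATF1/CREB1/CREM-KO. The groups did not overlap, and Gbp9 rose by 0.88 on the log2 scale (SE 0.17, limma adjusted p = 0.0282), 1.90-fold in TPM. Gbp4 was at 0.94, 0.80 and 1.47 TPM in the control clones and at 2.61, 3.79 and 3.58 TPM in the knockout. It also rose without overlap, by 1.07 on the log2 scale (SE 0.23, limma adjusted p = 0.0386), although it was near 1 TPM in the control clones. Both calls were lost with no filter on low values (limma adjusted p = 0.0633 for Gbp9 and 0.0764 for Gbp4) and against all control clones (0.395 and 0.145). They were also lost in 5 of the 6 fits with 1 library left out and held without replicate 1.

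The 5 other guanylate-binding proteins did not pass the filter in run 3. Gbp2 was at 0.28, 1.53 and 1.60 TPM in ATF1/CREB1/CREM-KO and at 0.75, 0.44 and 0.83 TPM in its control clones. Replicate 1 was below every control clone and replicates 2 and 3 were above them. Gbp3 was at 0.18, 1.16 and 0.65 TPM against 0.11, 0.25 and 0.04 TPM. Gbp5, Gbp6 and Gbp7 stayed at or below 0.55 TPM in every library of the series, and Gbp5 was listed at 0 in all 6 libraries of run 3.

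Gbp4, Gbp8 and Gbp9 lie on chromosome 5, on the minus strand, and in the GENCODE M21 annotation their exons overlap by 60 or 61 bases, which is 1.74% of the exon bases of Gbp8 for its overlap with Gbp9. Of all 50-base words in the transcripts of Gbp8, 18.1% also occur in another gene, most often in Gbp11 (7.37%). The share was 8.05% for Gbp9 and 7.78% for Gbp4. Reads from these stretches can be assigned to any of the genes that share them, so the values of the 3 genes are not fully independent. Their neighbours Gbp6, Gbp10 and Gbp11 were at most 0.44, 0.24 and 0.18 TPM in ATF1/CREB1/CREM-KO.

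The means of these 3 genes were lower in ATF1-KO than in control clones 1 to 5, and none was called. Gbp8 was at 3.90, 1.68, 3.86, 6.87 and 3.06 TPM in ATF1-KO replicates 1 to 5 and at 5.72, 9.96, 9.03, 5.37 and 8.81 TPM in the control clones. Replicate 4 lay within the range of the control clones and the other 4 lay below it. The log2 change was -0.90 (SE 0.27, limma adjusted p = 0.565). Gbp9 had a log2 change of -0.51 (SE 0.21, limma adjusted p = 0.637) and Gbp4 of -0.42 (SE 0.23, limma adjusted p = 0.698).

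In ATF1/CREB1-KO Gbp8 was at 3.17, 9.93 and 4.74 TPM against 1.47, 2.49 and 1.88 TPM in control clones 6 to 8. The groups did not overlap, but replicate 2 was far above the other 2 and the log2 change of 1.13 (SE 0.36) had a limma adjusted p of 0.433. Gbp9 was at 2.61, 3.87 and 2.77 TPM against 1.35, 2.64 and 2.36 TPM, with overlap and a log2 change of 0.40 (SE 0.25, limma adjusted p = 0.660). Gbp4 was at most 0.52 TPM in run 2 and did not pass the filter, like Gbp2, Gbp3, Gbp5, Gbp6 and Gbp7.

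The difference between knockout effects was tested directly in 1 limma fit over all 22 libraries, in which no control library serves both effects. The Gbp8 effect in ATF1/CREB1/CREM-KO was above that in ATF1-KO by 2.90 on the log2 scale (SE 0.47, limma adjusted p = 9.74e-04). The corresponding differences were 1.39 for Gbp9 (SE 0.31, limma adjusted p = 0.0171) and 1.49 for Gbp4 (SE 0.32, limma adjusted p = 0.0124). Gbp4 passed the filter of that fit only through the ATF1/CREB1/CREM-KO libraries, since its mean over all others was under 1 TPM, so its difference is a description. The Gbp8 difference from ATF1-KO is a description too, because the list was drawn up for the Gbp8 rise in ATF1/CREB1/CREM-KO. Over all genes, 3.57% of 13295 differed between these 2 knockouts. The Gbp8 effect in ATF1/CREB1-KO was above that in ATF1-KO by 2.03 (SE 0.47, limma adjusted p = 0.0340), where 1.46% of all genes differed. That difference lost its call without control clone 2, 6, 7 or 8 and without ATF1-KO replicate 2 or 5. Without control clone 1, 3 or 11, or ATF1-KO replicate 3 or 4, only 1 of Gbp8 and Ifngr1 kept this call. Both Gbp8 differences from ATF1-KO subtract the same ATF1-KO effect, a log2 change of -0.90 without a call, and are not independent. Between ATF1/CREB1/CREM-KO and ATF1/CREB1-KO the Gbp8 effects were 0.87 apart (SE 0.52, limma adjusted p = 0.694). None of the 32 tested genes of the list differed there, and 0.188% of all genes did.

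**Figure D2:**
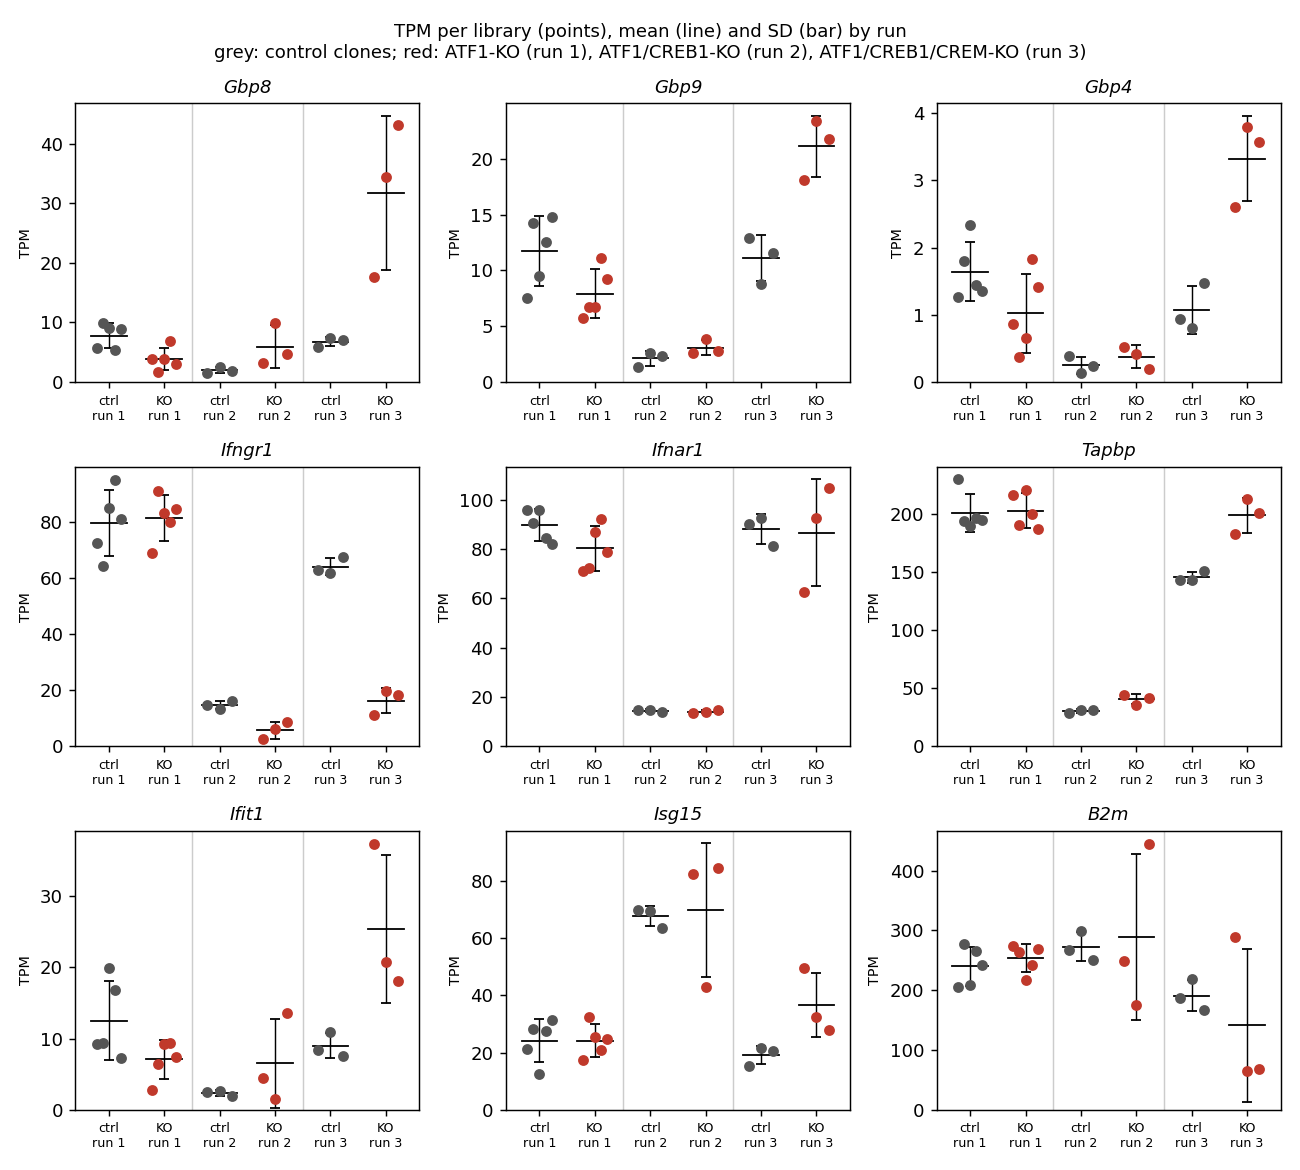
TPM of 9 interferon-response genes in each library (points), by run and arm, with the mean (line) and SD (bar); n is 5 in each arm of run 1 and 3 in each arm of runs 2 and 3. Control clones are grey and knockouts red. Gbp8, Gbp9, Gbp4, Tapbp and Ifit1 lie higher and Ifngr1 lower in all 3 ATF1/CREB1/CREM-KO libraries than in their control clones, and B2m lies at 65.7 and 67.7 TPM in replicates 2 and 3 but at 289.6 TPM in replicate 1.

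Of the receptor chains, Ifngr1, which binds interferon gamma, fell and Ifnar1, a chain of the type I interferon receptor, showed no call. Ifngr1 was at 62.9, 61.7 and 67.5 TPM in control clones 9 to 11 and at 11.0, 19.5 and 18.2 TPM in ATF1/CREB1/CREM-KO. Each knockout library was below each control clone by a wide margin. The means were 16.2 TPM ± 4.59 (SD, n = 3) and 64.0 TPM ± 3.07 (SD, n = 3), and Ifngr1 fell by 1.96 on the log2 scale (SE 0.21, limma adjusted p = 0.00436), a 3.95-fold higher mean in the control clones. The call held with each of the 6 libraries left out in turn (limma adjusted p from 1.58e-04 to 0.0371), which was not so for the other 5 called genes. It was lost against all control clones (limma adjusted p = 0.395).

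In ATF1/CREB1-KO Ifngr1 was at 2.39, 5.88 and 8.46 TPM against 14.5, 13.1 and 16.1 TPM in control clones 6 to 8. The groups again did not overlap. The log2 change of -1.36 (SE 0.37) had a limma adjusted p of 0.368 in the fit of run 2 alone and of 0.00529 in the fit over all 22 libraries with run as a term, where 4.58% of 13295 genes were called. In ATF1-KO Ifngr1 ranged from 68.8 to 91.2 TPM, with a median of 83.1 TPM, and in control clones 1 to 5 from 64.2 to 95.0 TPM, with a median of 81.2 TPM. These ranges overlapped nearly in full, and the log2 change was 0.04 (SE 0.11, limma adjusted p = 0.933).

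The Ifngr1 effect was lower in ATF1/CREB1/CREM-KO than in ATF1-KO by a log2 difference of -1.998 (SE 0.33, limma adjusted p = 0.00113). It was lower in ATF1/CREB1-KO than in ATF1-KO by -1.40 (SE 0.33, limma adjusted p = 0.0354), a call that was also lost without control clone 2, 6, 7 or 8 and without ATF1-KO replicate 2 or 5. Without control clone 1, 3 or 11, or ATF1-KO replicate 3 or 4, only 1 of Gbp8 and Ifngr1 kept this call. Both Ifngr1 differences from ATF1-KO subtract the same ATF1-KO effect and are not independent. Between ATF1/CREB1/CREM-KO and ATF1/CREB1-KO the Ifngr1 effect differed by -0.59 (SE 0.37, limma adjusted p = 0.694), which did not pass the test. Only 0.54% of the 50-base words of Ifngr1, on chromosome 10, occur in another gene.

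Ifnar1 was at 90.4, 92.6 and 81.3 TPM in control clones 9 to 11 and at 62.6, 92.6 and 105.0 TPM in ATF1/CREB1/CREM-KO, with replicate 1 below and replicate 3 above every control clone. Its log2 change was -0.05 (SE 0.19, limma adjusted p = 0.885), and it was -0.17 in ATF1-KO and -0.04 in ATF1/CREB1-KO, both without a call. The partner chains were described from a second list. Ifngr2 was at 31.8, 76.8 and 71.5 TPM in ATF1/CREB1/CREM-KO and at 51.0, 51.9 and 48.7 TPM in its control clones, and Ifnar2 at 69.8, 119.6 and 123.7 TPM against 107.0, 94.7 and 110.6 TPM. Both were below the control clones in replicate 1 and above them in replicates 2 and 3, and neither was called. Ifna1, Ifna2, Ifna4, Ifng, Ifnl2 and Ifnl3 were listed at 0 in all 22 libraries. Ifnb1 was at 0 in all 6 libraries of run 3 and at most 0.13 TPM in the others. Ifnk, another interferon gene of that list, was above 0 in all 22 libraries and reached 2.14 TPM in ATF1-KO replicate 3. In ATF1/CREB1/CREM-KO it was at 1.32, 0.80 and 1.23 TPM, against 1.17, 0.39 and 0.86 TPM in control clones 9 to 11.

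The RNA sensors and the RNA sensor ligase Trim25 showed no call in any knockout. Ddx58, which encodes the sensor RIG-I, was at 15.1, 10.9 and 10.5 TPM in ATF1/CREB1/CREM-KO and at 11.1, 9.23 and 9.09 TPM in control clones 9 to 11, a log2 change of 0.27 (SE 0.17, limma adjusted p = 0.357). Trim25 was at 23.5, 18.1 and 19.9 TPM against 21.7, 21.8 and 22.7 TPM. In Ddx58, as in Ifih1 (the sensor MDA5; 8.50, 3.46 and 4.28 TPM against 5.19, 4.28 and 4.65 TPM), replicate 1 was the highest library of the run.

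No transcription factor of the pathway was called. Irf1, an activator induced by interferon gamma, was at 47.4, 39.0 and 42.2 TPM in control clones 9 to 11 and at 24.4, 35.1 and 33.3 TPM in ATF1/CREB1/CREM-KO, without overlap (log2 change -0.47, SE 0.16, limma adjusted p = 0.115). Irf9, the DNA-binding subunit of the factor that binds the ISRE, was at 52.3, 58.6 and 50.7 TPM against 50.0, 44.2 and 44.9 TPM in the knockout, with a narrow gap between the groups (log2 change -0.21, SE 0.10, limma adjusted p = 0.223). Stat2 was at 16.3, 18.0 and 16.8 TPM against 27.6, 16.7 and 15.5 TPM in the knockout, where only replicate 1 was above the control clones. Irf3, which acts directly downstream of the sensors, had a log2 change of -0.34 (SE 0.23, limma adjusted p = 0.388), and Irf7, which amplifies type I interferon production, of 0.27 (SE 0.37, limma adjusted p = 0.678).

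The antiviral effectors are the genes most used as a readout of type I interferon signalling. Of 17, 15 passed the filter in ATF1/CREB1/CREM-KO, of which only Ifit1 was called. Ifit1, which binds viral RNA lacking the host cap modification, was at 8.42, 11.0 and 7.61 TPM in control clones 9 to 11 and at 37.2, 20.8 and 18.0 TPM in the knockout. The groups did not overlap, and Ifit1 rose by 1.34 on the log2 scale (SE 0.28, limma adjusted p = 0.0337), 2.82-fold in TPM. In the fit over all 22 libraries with run as a term, in which 8.02% of genes were called, its limma adjusted p was 0.103 and the call was lost. It was also lost with no filter on low values (limma adjusted p = 0.0764), against all control clones (0.248) and in 5 of the 6 fits with 1 library left out, and held without replicate 1. Of the 50-base words of Ifit1, 7.06% also occur in Ifit1bl2.

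Isg15, a ubiquitin-like modifier, was at 15.5, 21.5 and 20.5 TPM in control clones 9 to 11 and at 49.5, 32.6 and 28.0 TPM in ATF1/CREB1/CREM-KO. It was higher in all 3 libraries but was not called (log2 change 0.88, SE 0.23, limma adjusted p = 0.0628). Ifitm3, an inhibitor of virus entry, was at 159, 50.5 and 61.8 TPM against 59.1, 99.9 and 70.0 TPM, with replicate 1 above and replicate 2 below every control clone. Bst2, the tetherin that holds virions at the cell surface, was at 40.9, 30.1 and 23.9 TPM against 30.1, 37.5 and 31.9 TPM. Cxcl10, a chemokine, was at 7.42, 2.51 and 3.22 TPM against 1.59, 3.62 and 2.07 TPM, with only replicate 1 above the control clones (log2 change 0.59, SE 0.39, limma adjusted p = 0.372).

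Other effectors are named here after their values were seen. Usp18, which removes ISG15 and restrains the type I receptor, was at 6.48, 6.07 and 7.44 TPM in control clones 9 to 11 and at 4.77, 2.07 and 2.16 TPM in ATF1/CREB1/CREM-KO, lower without overlap (log2 change -0.998, SE 0.28, limma adjusted p = 0.0712). Oas2 was at 1.13, 3.58 and 3.02 TPM against 0.90, 0.50 and 0.17 TPM, and Rsad2, which encodes viperin, at 2.27, 1.20 and 1.42 TPM against 0.34, 0.59 and 0.28 TPM. Both passed the filter only through the knockout libraries, and neither was called (limma adjusted p = 0.0958 and 0.0892). Mx1 was listed at 0 in the control clones and in replicate 1 and was at 0.70 and 0.97 TPM in replicates 2 and 3. Mx1 and Mx2 were the effectors below the filter, and Mx2 stayed at or below 0.37 TPM in run 3.

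Several effectors differed in sign between the knockout libraries. Ifit2 was at 55.6, 57.3 and 53.4 TPM in control clones 9 to 11 and at 78.9 and 77.0 TPM in ATF1/CREB1/CREM-KO replicates 2 and 3. Replicate 1 was below every control clone, by -1.23 from their mean on the log2 scale, and replicates 2 and 3 were above them. Ifit3 was at 9.00, 44.3 and 38.6 TPM against 10.5, 8.88 and 12.8 TPM. The paralogue Ifit3b holds 51.2% of the 50-base words of Ifit3, so reads of the pair are hard to tell apart. Oas1a was at 5.08, 2.87 and 2.88 TPM against 4.26, 3.56 and 4.38 TPM, above the control clones in replicate 1 and below them in replicates 2 and 3, and shares 57.6% of its words with Oas1g.

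In ATF1-KO the IFIT genes had the most negative log2 changes of the effectors and were not called: -0.74 for Ifit1 (limma adjusted p = 0.653), -0.54 for Ifit2 (limma adjusted p = 0.697) and -1.10 for Ifit3 (limma adjusted p = 0.664). Ifit3 was at 1.31, 2.54, 10.3, 14.1 and 4.39 TPM in ATF1-KO replicates 1 to 5 and at 15.1, 7.60, 22.5, 12.7 and 6.71 TPM in control clones 1 to 5, with overlap. ATF1-KO replicate 1 was the lowest library of its run for 17 of the 34 tested genes of the list (50.0%), and for 14.2% of all genes.

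In ATF1/CREB1-KO the values of the effectors differed widely between replicates. Ifit3 was at 4.02, 4.24 and 19.6 TPM against 3.12, 1.88 and 2.69 TPM in control clones 6 to 8, above them in all 3 libraries without a call (limma adjusted p = 0.542). Cxcl10 was at 3.07, 0.64 and 17.6 TPM against 2.39, 2.53 and 2.01 TPM, and Oas1a at 1.44, 0.85 and 7.42 TPM against 1.03, 1.22 and 0.74 TPM. Replicate 3 was by far the highest for both, and replicate 2 was below the control clones for Cxcl10. Replicate 3 was the highest library of the run for 19 of 31 tested genes of the list (61.3%), and for 40.5% of all genes. It was also the library of run 2 with the low ribosomal share (7.19%), and the part of that in these values was not tested. Replicate 2 was the lowest for 15 of 31 (48.4%), and for 20.1% of all genes.

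Of the 7 antigen presentation genes, 6 passed the filter in ATF1/CREB1/CREM-KO and only Tapbp was called. Tapbp, the tapasin chaperone that loads peptides onto class I molecules, was at 142.5, 142.6 and 150.3 TPM in control clones 9 to 11 and at 182.5, 212.4 and 200.2 TPM in ATF1/CREB1/CREM-KO. It rose without overlap by 0.45 on the log2 scale (SE 0.08, limma adjusted p = 0.0257), 1.37-fold in TPM. An antisense gene, Gm19412, overlaps 24.9% of its exon bases, but was at 3.28, 1.59 and 2.65 TPM in the knockout and at 2.52, 1.68 and 2.44 TPM in the control clones. On the same strand, exons of Zbtb22 overlap 149 bases (4.11%) of Tapbp. Zbtb22 was between 30.6 and 33.6 TPM in the knockout and between 22.2 and 26.3 TPM in the control clones, also higher without overlap, and its part in the Tapbp value was not tested. The Tapbp call was lost against all control clones (limma adjusted p = 0.696) and in 5 of the 6 fits with 1 library left out, and held without replicate 1. In ATF1/CREB1-KO Tapbp was at 43.8, 35.4 and 40.9 TPM against 28.1, 31.2 and 30.5 TPM, again without overlap. Its log2 change of 0.41 (SE 0.19) had a limma adjusted p of 0.557 in the fit of run 2 and of 0.0332 in the fit over all 22 libraries with run as a term.

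B2m, the invariant chain of class I molecules, was at 187.5, 218.3 and 166.2 TPM in control clones 9 to 11 and at 289.6, 65.7 and 67.7 TPM in ATF1/CREB1/CREM-KO. Replicate 1 was above and replicates 2 and 3 far below every control clone, and the log2 change of -0.79 (SE 0.55) was not called (limma adjusted p = 0.397). H2-K1, a class I heavy chain, was at 429.7, 449.4 and 421.2 TPM against 437.6, 384.3 and 411.6 TPM, with overlap and a log2 change of 0.08 (SE 0.08, limma adjusted p = 0.572). H2-D1, the other heavy chain of the list, was at 239.8, 159.0 and 157.8 TPM against 261.4, 261.1 and 266.0 TPM, lower without overlap and without a call (log2 change -0.53, SE 0.17, limma adjusted p = 0.0983).

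Tap1, a subunit of the peptide transporter, was at 11.0, 11.8 and 10.5 TPM in ATF1/CREB1/CREM-KO against 7.69, 7.97 and 7.88 TPM, higher in every library (log2 change 0.45, SE 0.12, limma adjusted p = 0.0628). Psmb9, an immunoproteasome subunit whose gene overlaps Tap1, was at 7.45, 9.87 and 5.76 TPM against 3.93, 3.64 and 5.67 TPM, with a gap of less than 0.1 TPM between the groups. Psmb8 stayed below the filter in all 3 runs and reached at most 1.06 TPM in a library.

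**Figure D3:**
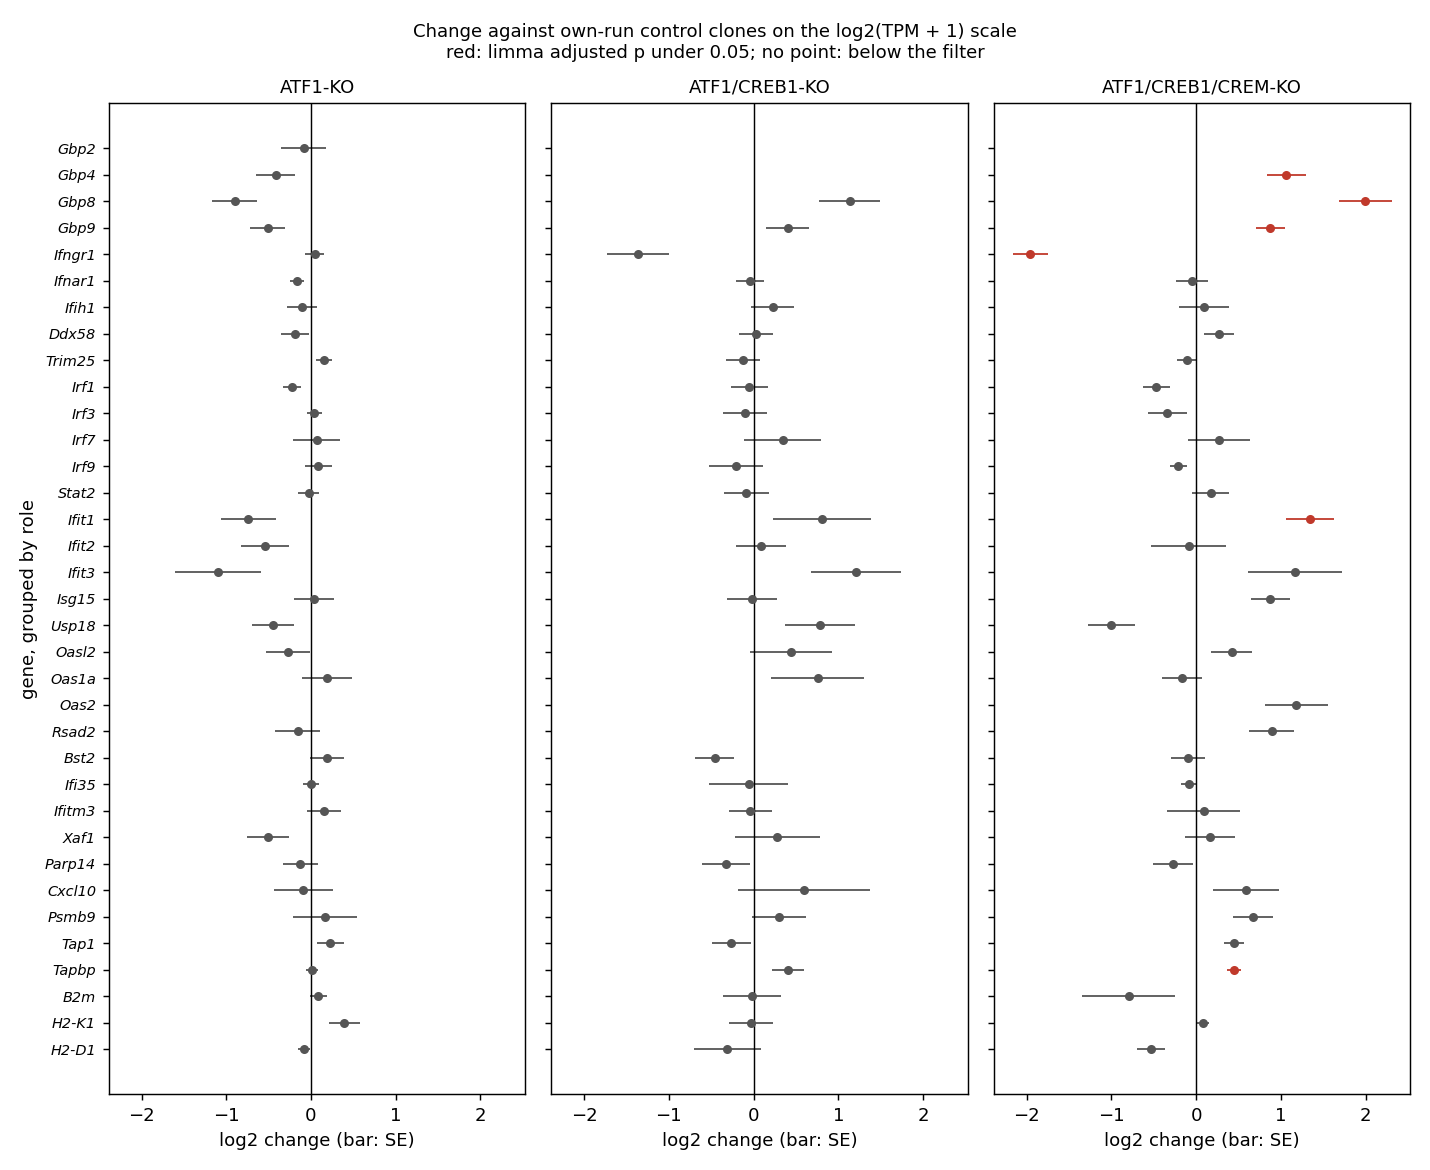
Log2 change (points) and SE (bars) of each tested interferon-response gene against own-run control clones in the 3 knockouts, on the log2(TPM + 1) scale. Red points are called by limma at an adjusted p under 0.05; there are 6, all in ATF1/CREB1/CREM-KO, with Gbp8 at 2.00 and Ifngr1 at -1.96 at the ends, and rows without a point did not pass the filter.

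Genes of the same pathway outside the list were counted from lists written with earlier results of these data known. In ATF1/CREB1/CREM-KO, 2 of 29 tested other interferon-stimulated genes rose and 2 fell, 1 of 12 other antigen presentation genes rose and 3 fell, 1 of 18 signalling and sensing genes rose and 0 fell, and 0 of 4 other receptor chains were called. These counts stand beside 3.91% of all genes called higher and 5.26% called lower in that comparison. None of these genes was called in ATF1-KO or ATF1/CREB1-KO against own-run control clones. Isg20, an antiviral exonuclease, rose from 77.7, 64.8 and 82.8 TPM in control clones 9 to 11 to 129.5, 171.9 and 169.3 TPM (log2 change 1.05, SE 0.15, limma adjusted p = 0.0103), and Tap2, the partner of Tap1, from 10.7, 11.4 and 12.2 TPM to 15.3, 18.2 and 19.7 TPM (0.59, limma adjusted p = 0.0414). The nonclassical class I genes H2-M3 and H2-T23 fell, with log2 changes of -1.51 (limma adjusted p = 0.0112) and -1.23 (limma adjusted p = 0.0195). H2-M3 was at 0.44, 0.56 and 0.82 TPM against 3.31, 4.15 and 3.28 TPM, so it passed the filter only through the control clones. Its fall, counted among the 3, is therefore a description. Ifi27 and Dtx3l, both interferon-stimulated, fell as well, with log2 changes of -0.69 (limma adjusted p = 0.0269) and -0.62 (limma adjusted p = 0.0397).

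Promoters were searched for the sequence elements of the pathway. RefSeq promoter windows of build GRCm38.p6, from 250 bases before to 50 bases after the transcription start, were matched by symbol for 33 of the 42 genes; Gbp4, Gbp6, Gbp8, Gbp9, Mx1, Mx2, Oas2, Parp14 and Usp18 had no entry. The windows of 2 genes are shown without the transcribed bases, because they belong to the called genes Ifit1 and Ifngr1, which moved in opposite directions. Capitals mark a match to the ISRE core GAAANNGAAA or to its reverse complement.
Ifit1, chr19:34640639-34640888, plus strand: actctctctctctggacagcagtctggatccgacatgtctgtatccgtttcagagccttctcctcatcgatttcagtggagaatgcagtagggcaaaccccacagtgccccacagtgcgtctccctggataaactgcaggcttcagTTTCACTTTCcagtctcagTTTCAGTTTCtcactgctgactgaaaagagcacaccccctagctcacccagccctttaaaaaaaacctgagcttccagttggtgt
Ifngr1, chr10:19591699-19591948, plus strand: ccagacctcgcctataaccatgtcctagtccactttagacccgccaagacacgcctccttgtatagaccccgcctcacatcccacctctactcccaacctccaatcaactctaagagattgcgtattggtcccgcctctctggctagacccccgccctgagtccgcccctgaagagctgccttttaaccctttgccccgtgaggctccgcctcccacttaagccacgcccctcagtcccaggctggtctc

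Ifit1 carries 2 such matches, which start 104 and 85 bases before the transcription start, and the Ifngr1 window carries none. As examples from different roles, 1 ISRE core each of 5 genes is shown with 5 bases on each side, on the strand of the gene. Further cores lie in Isg15 and Ifit3, and others in Bst2, Cxcl10, Ddx58, Gbp3, Gbp5, Gbp7, Ifih1, Ifitm3, Oas1a and Rsad2.
Isg15, from 72 bases before the start: aaaagGAAACCGAAAcagaa
B2m, from 139 bases before the start: aacatGAAACTGAAAatggg
Ifit3, from 122 bases before the start: gtctgTTTCAGTTTCtactt
Gbp2, from 59 bases before the start: tttagTTTCACTTTCactgt
Stat2, from 222 bases before the start: cctggTTTCAGTTTCctttc

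Of the 33 windows, 16 (48.5%) hold an ISRE core on either strand, as do 3.99% of the 27025 genes in the table. The GAS motif TTCNNNGAA was in 10 windows (30.3%), as in 9.55% of all genes. The full CRE TGACGTCA was in none of the 33, as against 2.03% of all genes, and the CRE half-site TGACG was in 10 (30.3%), as against 23.1%. The half-sites of Tap1 and Psmb9 are the same bases read on opposite strands in overlapping windows, so these genes share 1 site. Of the 16 genes with an ISRE core, 12 were tested in ATF1/CREB1/CREM-KO and 1 was called, Ifit1. Of those with a GAS motif 0 of 7 tested genes were called, and of those with a CRE half-site 0 of 10. Over all genes, 9.17% were called in that comparison. Rsad2, tested among those with an ISRE core and a CRE half-site, passed the filter only through the knockout libraries. B2m and Ifih1 also hold both an ISRE core and a CRE half-site, as Rsad2 does. Of the called genes, Ifngr1, Ifit1 and Tapbp were in the table, and none of their windows holds a GAS motif, a CRE or its half-site. A match describes the letters in these windows and does not show that a factor binds there.

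The 3 ATF1/CREB1/CREM-KO libraries were not alike, with replicate 1 apart from the other 2. Between replicates 1 and 2 the median absolute log2 difference was 0.58 over the 34 tested genes of the list and 0.28 over all genes. Between replicates 1 and 3 it was 0.62 and 0.28, and between replicates 2 and 3 it was 0.11 and 0.10. A difference over 0.5 was found for 64.7% of the list between replicates 1 and 2, 55.9% between replicates 1 and 3 and 2.9% between replicates 2 and 3. The same shares over all genes were 27.8%, 27.7% and 6.9%. Csf1r separates the same libraries, and the part of either pattern in the other was not tested. Across genes, the correlation of log2(TPM + 1) was 0.98 between replicates 2 and 3 and 0.95 between replicate 1 and each of them.

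**Figure D4:**
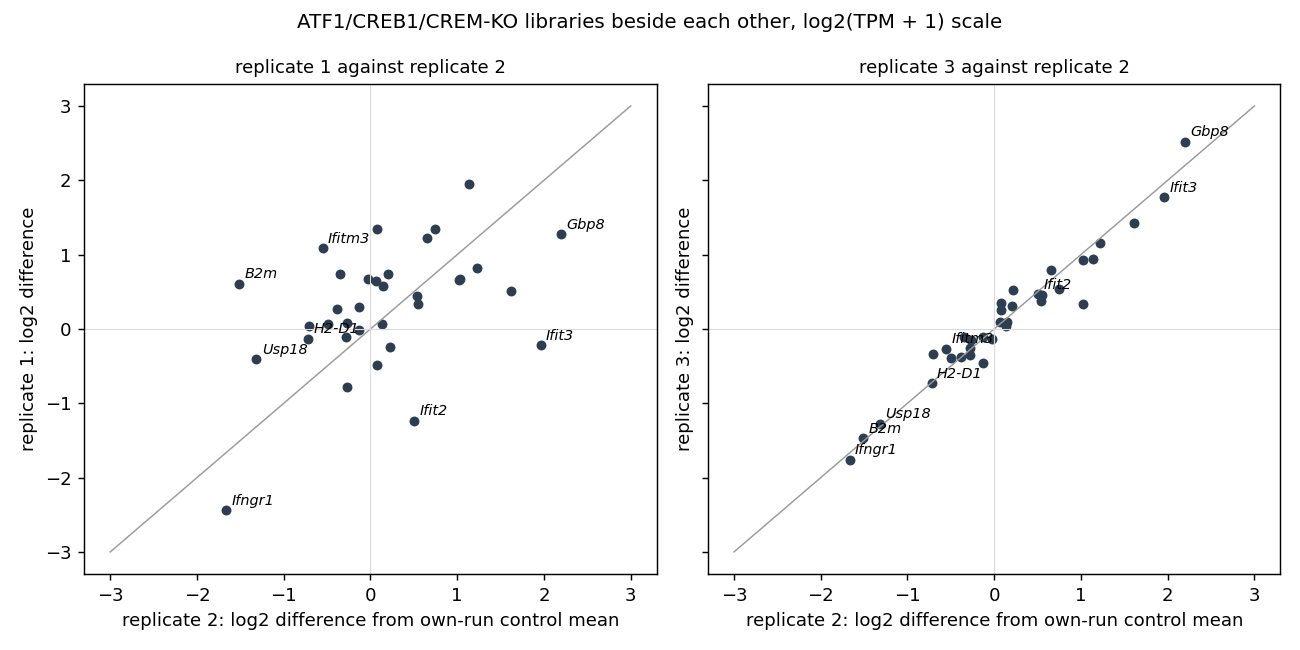
Each point is 1 of the 34 interferon-response genes tested in ATF1/CREB1/CREM-KO, placed by its log2(TPM + 1) difference from the mean of control clones 9 to 11 in replicate 2 (horizontal) and in replicate 1 (left) or replicate 3 (right); the line marks equal values. Replicates 2 and 3 lie along the line with a median absolute difference of 0.11, whereas replicate 1 departs from it by a median of 0.58, with B2m, Ifit2 and Ifit3 far from it.

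Replicate 1 was seen to stand apart in the values of these same genes, so the counts without it are a description and no independent support, and they rest on the 2 libraries that correlate at 0.98. Without ATF1/CREB1/CREM-KO replicate 1, 14 of the 34 genes of the list were called, and 25.1% of 13233 genes were called in all. All 6 genes of the full comparison remained among them. The 8 additional genes were Ifit2 (0.48, limma adjusted p = 0.00529), Ifit3 (1.87, limma adjusted p = 8.90e-04), Isg15 (0.64, limma adjusted p = 0.0294), Oas2 (1.52, limma adjusted p = 0.0142) and Tap1 (0.46, limma adjusted p = 0.0413), which were higher, and Usp18 (-1.30, limma adjusted p = 0.00350), B2m (-1.49, limma adjusted p = 6.48e-04) and H2-D1 (-0.73, limma adjusted p = 6.86e-04), which were lower. Oas2 passed the filter only through the knockout libraries, so its call adds nothing to the count. Leaving out replicate 2, or control clone 9, 10 or 11, left Ifngr1 as the only call of the list, and leaving out replicate 3 left Gbp8 and Ifngr1. The Gbp8 log2 change stayed between 1.74 and 2.36 over these 6 fits, with limma adjusted p-values from 3.13e-04 to 0.0750.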

How the data were processed

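The authors deposited 1 table of TPM values per gene for 22 libraries, with STAR and RSEM named in the submitters' processing notes; the versions, the genome build and the annotation are not given in the sources used here. Per the labels' protocols, cDNA was amplified by PCR, tagmented and sequenced with paired ends. Changes were computed from log2(TPM + 1) with limma 3.58.1 in R 4.3.3 (lmFit, eBayes with trend), for genes averaging 1 TPM or more in the libraries fitted, in 1 fit per run, and differences between effects in a fit of 6 group means; the procedure was tested on simulated data. Other settings were a pseudocount of 0.1 TPM, no filter and a filter of 5 TPM, median-ratio scaling, quantile normalization, all 11 control clones, run as a term, and leaving out each library. Named with values are all called genes of the list, all 8 guanylate-binding proteins, the 2 most abundant genes of each role and 8 fixed genes of the pathway. From the other pathway lists, at most 6 called genes per comparison are named, by size of log2 change, so not every called gene is named. The other named genes were added after their values were seen. One gene of the rule is not reported here. The members, the lists and these rules were chosen with earlier results of these data known. Word sharing and exon overlap were computed from GENCODE M21 by Ensembl identifier, and promoters were taken from RefSeq (GRCm38.p6).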

Additional observations from a re-analysis of the deposited data

Results flagged for a closer look

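Within groups of 5 libraries, 3 of 68 groups examined held a library far from the rest, and chance gives about 1 in 20. Ddx58 was at 9.95 TPM in ATF1-KO replicate 1, with a gap to the nearest library of 0.947 of the range. Cxcl10 was at 11.5 TPM in control clone 2 (0.816 of the range), and Tapbp at 229.7 TPM in control clone 1 (0.845 of the range).

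For 6 pairs of gene and knockout the effects differed in the direct limma test. Each difference was tested for 32 genes of the list. Over all 13295 genes tested, 3.57% differed between ATF1/CREB1/CREM-KO and ATF1-KO, and 1.46% between ATF1/CREB1-KO and ATF1-KO. Against the effect in ATF1-KO, that in ATF1/CREB1/CREM-KO was higher by 2.90 on the log2 scale for Gbp8, by 1.49 for Gbp4 and by 1.39 for Gbp9, and differed by -1.998 for Ifngr1. Gbp4 passed the filter only through the ATF1/CREB1/CREM-KO libraries, so its difference is a description. The Gbp8 difference in that knockout is a description too, because the list was drawn up for the Gbp8 rise there. The effect in ATF1/CREB1-KO was higher than that in ATF1-KO by 2.03 for Gbp8 and differed by -1.40 for Ifngr1, and both calls were lost without control clone 2, 6, 7 or 8 and without ATF1-KO replicate 2 or 5. Only 1 of these 2 calls held without control clone 1, 3 or 11, or without ATF1-KO replicate 3 or 4. The 2 differences of Gbp8, and likewise the 2 of Ifngr1, subtract the same ATF1-KO effect and are not independent. The 2 knockouts of each pair also belong to different runs, so a difference between runs in how strongly a gene can respond cannot be told apart from the genotype.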

How the results depend on the processing

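The values carry no read depth, and leaving out single libraries changed most calls of the list in ATF1/CREB1/CREM-KO. In ATF1-KO no gene of the list was called under any setting; leaving out 1 library gave 0 to 1 called genes in all. Replicate numbers 1 to 5 did not pair ATF1-KO with its control clones: correlations of the deviations of same-numbered libraries lay between -0.103 and 0.084, 2 control clones and 1 knockout library correlated best with their own number, and the replicate block also called 0 genes, 0 of them in the list. No paired analysis was possible in runs 2 and 3 because knockouts and control clones share no number there.

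In ATF1/CREB1-KO, where 9 of 12579 genes were called, the count was 0 with no filter on low values and 18 under median-ratio scaling. It was 4260 of 13270 against all control clones, which shifted the median of all genes by -0.96, and 609 of 13295 with run as a covariate. Of the list, 8 of 31 tested genes were called against all control clones and 2 of 32 with run as a covariate. Leaving out 1 library gave 0 to 60 genes in all (60 without ATF1/CREB1-KO replicate 3, 0 without replicate 2) and 0 of the list.

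In ATF1/CREB1/CREM-KO, 1216 of 13258 genes and 6 of 34 of the list were called. With no filter the counts were 710 of 23792 and 3 of 41. Against all control clones, which shifted the median of all genes by 0.28, they were 137 of 13360 and 1 of 33. Leaving out 1 library gave 185 of 13234 genes (without control clone 9) to 3317 of 13233 (without replicate 1). Of the list, these fits called 1 to 14 of the 33 or 34 genes tested. The share of lower genes was 57.4%, 46.9% under median-ratio scaling and 46.7% under quantile normalization. Ifit2, at -0.09, turned to 0.48 without replicate 1, and its values with 1 library left out ran from -0.38 to 0.48. Ifngr1 lost its call against all control clones (limma adjusted p = 0.395), and Gbp8 kept its call under all 7 other settings that left out no library.

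For the differences between effects, ATF1/CREB1/CREM-KO minus ATF1-KO gave 475 of 13295 genes (3.57%) and 4 of the 32 tested genes of the list. These 4 include Gbp8 and Gbp4, whose differences are descriptions. With 1 library left out the counts were 273 to 879 and 3 to 6. The share of lower genes fell from 70.7% to 58.0% under quantile normalization. ATF1/CREB1/CREM-KO minus ATF1/CREB1-KO gave 25 genes (0.188%), and 7 to 59 with 1 library left out. The count was 16 with a pseudocount of 0.1 TPM, 16 under median-ratio scaling and 16 under quantile normalization. Of the list, 0 of 32 differed in each (0 to 0 with 1 library left out). ATF1/CREB1-KO minus ATF1-KO gave 194 genes (1.46%) and 2 of the 32 tested genes of the list. With 1 library left out the counts were 88 to 620 and 0 to 4. Over all genes the count was 389 under median-ratio scaling and 330 under quantile normalization, where the share of lower genes fell from 73.7% to 55.5%. The cause of these shifts was not tested.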
